A study of Mus musculus with 14 samples.

Results

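The difference between C2C12 cells transfected with Klf5 siRNA (siKlf5) and cells transfected with control siRNA (siCtrl) was followed over days 0, 1, 2 and 3 of differentiation, with the siKlf5 and siCtrl libraries of a day taken as a pair. C2C12 is a mouse myoblast line that leaves the cell cycle and fuses into myotubes when growth medium is replaced by differentiation medium with little serum. Transfection preceded the change of medium by a day. A knockdown by siRNA lowers the RNA but does not remove it. As siKlf5 was 1 pool of siRNAs, effects on RNAs other than Klf5 cannot be told apart from effects of the loss of Klf5. Poly(A) RNA was sequenced in 1 library per siRNA and day, 8 libraries of the 14 samples of the series, and the others, from ChIP-seq, were not used here. No condition was repeated, so the error given throughout is the SD of the log2 ratio over the 4 days. This spread between days also holds any true change of the ratio with the day. Whether the days came from separate transfections is not given, so the SD is not a measure of repeated knockdowns. A p-value of limma measures an effect against that spread after it was drawn toward the spread of transcripts of like level. With 5.86 prior and 3 residual degrees of freedom, it does not follow from the SD printed beside it. Of 24016 transcripts in the table, 11591 were kept, those whose 8 FPKM values averaged 10 or more. FPKM is the name under which the values were deposited, and their scale is larger than that of true FPKM. The ratio of a day was log2((siKlf5 + 1)/(siCtrl + 1)), and the added 1 pulls the ratio of low transcripts toward 0. At the threshold, Fetub (mean 10.0) was the last transcript inside and Zfp429 (mean 9.97) the first outside.

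Klf5 is a zinc-finger transcription factor of the Krüppel-like family, whose members bind GC-rich and CACCC elements in promoters and enhancers. In skeletal muscle, differentiation is driven by basic helix-loop-helix factors such as MyoD (Myod1) and myogenin (Myog), which bind E-boxes, together with Mef2 factors. These factors switch on genes of the sarcomere, of calcium handling and of fusion while genes of the cell cycle are shut down. The pairing asks which transcripts differed between the siRNAs in the same way from the proliferating myoblast to the myotube.

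In the paired comparison, 18 transcripts were lower in siKlf5 cells (0.155% of those tested) and 3 were higher (0.0259%) at an adjusted p under 0.05 in limma. Mybph and Adora1, which overlap, are both counted among the 18. The calls included genes of the contractile apparatus in both directions. Atrial essential myosin light chain (Myl4), slow myosin heavy chain (Myh7) and myosin binding protein H (Mybph) fell, whereas fast type IIb myosin heavy chain (Myh4) rose. The matrix and adhesion genes Ntn4, Npnt and Itga6, mesothelin (Msln) and the cytokine gene Il33 also fell, and lipoprotein lipase (Lpl) rose. All 21 kept their direction on each of the 4 days. They also kept it in each of the 16 alternative settings. With 1 sign on all days, however, only the 3 other scalings could have changed it. Single calls held unevenly over the 16 settings. Msln, Myl4 and Il33 stayed called in 12, Adora1 and Ccdc88c in 7, Mybph and Tm6sf1 in 6 and Slc25a29 in 5. The number of calls did not hold. It was 0 in both directions with no day block (181 lower and 66 higher at an unadjusted p under 0.05), 0 with a prior without a trend (625 and 484), 0 with no filter on low values (782 and 695), 0 without day 2 (523 and 439) and 4 lower without day 3. It was 44 lower and 12 higher when transcripts under 200 nt were left out, 32 and 9 with a robust prior, 31 and 6 without day 0, and 28 and 3 without day 1.

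To show the start sites behind these calls, the promoter (250 bases before to 50 after the transcript start, mm9) is given for the called gene with the lowest p (Msln), for Mybph, and for Myh4, which rose. Each runs 5′ to 3′ on the strand of the gene. Capitals mark GGGCGG, the GC box bound by Sp and Klf factors, CACCC, the core of Krüppel-like factor sites, CAGCTG, an E-box, and CTATTT, a part of the Mef2 site, each on either strand. Neighbouring matches can run together.
Msln (chr17:25891223-25891522, minus strand): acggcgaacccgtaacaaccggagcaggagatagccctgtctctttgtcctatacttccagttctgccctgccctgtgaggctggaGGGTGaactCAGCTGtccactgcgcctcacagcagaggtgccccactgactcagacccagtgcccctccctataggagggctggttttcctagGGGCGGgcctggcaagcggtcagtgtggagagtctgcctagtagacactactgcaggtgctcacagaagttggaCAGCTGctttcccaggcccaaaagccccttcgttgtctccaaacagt
Mybph (chr1:136089775-136090074, plus strand): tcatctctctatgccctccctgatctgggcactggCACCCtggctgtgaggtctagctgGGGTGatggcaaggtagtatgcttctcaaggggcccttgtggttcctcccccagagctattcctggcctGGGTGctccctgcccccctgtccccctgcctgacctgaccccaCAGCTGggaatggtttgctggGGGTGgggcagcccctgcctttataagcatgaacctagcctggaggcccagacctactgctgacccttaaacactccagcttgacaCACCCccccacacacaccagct
Myh4 (chr11:67051064-67051363, plus strand): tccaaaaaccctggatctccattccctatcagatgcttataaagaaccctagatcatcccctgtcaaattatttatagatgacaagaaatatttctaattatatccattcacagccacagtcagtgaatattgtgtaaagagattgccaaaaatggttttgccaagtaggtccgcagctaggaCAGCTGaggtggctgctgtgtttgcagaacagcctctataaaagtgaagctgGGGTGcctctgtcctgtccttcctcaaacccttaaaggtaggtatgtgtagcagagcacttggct
CAGCTG was found in 4 of 18 (22.2%) promoters of the genes that fell and in 15.1% of the 11591 promoters. CACCC was found in 16 of 18 promoters of the genes that fell (88.9%), against 61.6% of all, and GGGCGG in 9 of 18 (50%), against 65.9% of all. The 18 include the siRNA target Klf5 itself and Adora1, whose transcript overlaps Mybph. Their median GC content was 66.7%, against 61.7% of all, and its part in these shares was not tested. CTATTT was found in 4 of 18 (22.2%), against 7.66% of all. Among the transcripts lower on each of the 4 days CACCC was found in 66.4% of promoters and CAGCTG in 18.5%, and among those higher on each day in 59.8% and 14.1%. These shares are descriptions with no test, and such a match is not a binding site.

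The targeted gene was checked first. Klf5 (chromosome 14, plus strand, 99697910 to 99712628 on mm9) was at 224, 381, 614 and 933 FPKM in siCtrl cells on days 0, 1, 2 and 3, and at 35.1, 159.6, 192 and 211 in siKlf5 cells. Every siKlf5 library was below every siCtrl library. The knockdown cells held 15.7%, 41.9%, 31.3% and 22.7% of the control level of the day, a mean log2 ratio of -1.92 ± 0.60 (SD, n = 4 days, adjusted p = 0.00751). Klf5 rose from day 0 to day 3 under both siRNAs, by 2.05 on the log2 scale in siCtrl and by 2.56 in siKlf5 cells. An exact sign-flip permutation test over the 4 pairs gives p = 0.125 (two-sided), the smallest that 4 pairs allow. The call was lost in 5 settings: with no day block, with no filter, without the trend, with a robust prior (adjusted p = 0.0515) and without day 2 (log2 ratio -2.01).

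**Figure D1:**
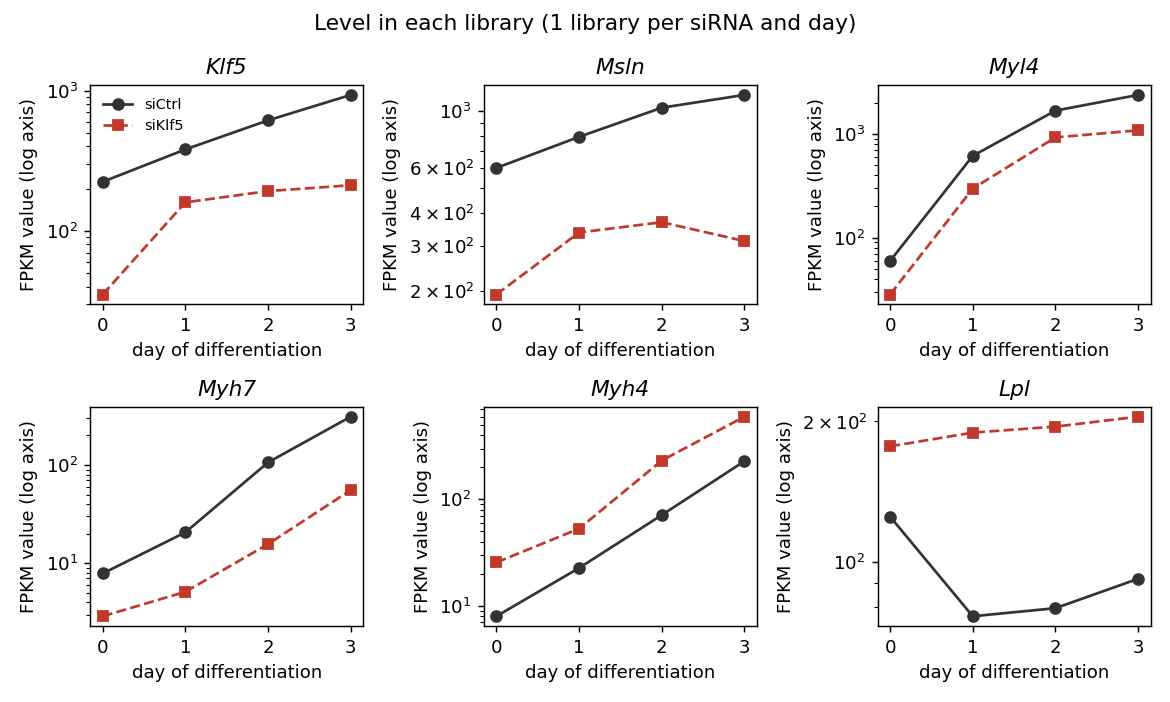
FPKM values (log axis) of Klf5, Msln, Myl4, Myh7, Myh4 and Lpl against the day of differentiation, 1 point per library, with siCtrl as circles and siKlf5 as squares. The siKlf5 line lies below the siCtrl line on each day for the first 4 genes (Klf5 35.1 against 224 on day 0) and above it for Myh4 and Lpl (598 against 228 for Myh4 on day 3).

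Of the other Klf and Sp genes, 13 of the 14 tested were not called, and 11 of the 14, Klf5 included, had a mean ratio below 0. Klf3, a CACCC-binding repressor, was lower on each day, with 253, 313, 316 and 299 FPKM in siCtrl against 211, 285, 242 and 238 in siKlf5 cells, a log2 ratio of -0.28 ± 0.11 (adjusted p = 0.261). Its siKlf5 values nonetheless overlapped the siCtrl values of other days. Klf10 and Klf11, known as Tgf-beta inducible factors, had log2 ratios of -0.33 ± 0.34 and -0.44 ± 0.38, and each was at or above the control on day 1. Klf7 was lower on days 0, 1 and 2 and higher on day 3, and its mean was -0.24 ± 0.63. Klf2, Klf4, Klf6, Klf9, Klf13 and Klf16 had mean log2 ratios between -0.15 (Klf9) and 0.09 (Klf4), each with a sign that changed between days.

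Contractile genes held the 2 opposite myosin heavy chain calls. Myh7 (NM_080728, chromosome 14, 55589525 to 55613386, minus strand), the heavy chain of slow fibres and heart, was at 7.86, 20.6, 106 and 311 FPKM in siCtrl and 2.88, 5.11, 15.7 and 55.5 in siKlf5 cells. Of transcripts averaging 50 or more and with the same sign on each day it had the largest mean reduction, -2.04 ± 0.68 (adjusted p = 0.0459), or 24.3% of the control level. Its transcript overlaps D830015G02Rik on the other strand (mean FPKM value 29.95), and as both strands were counted the reads of the pair cannot be told apart in the shared stretch. Myh4 (NM_010855, chromosome 11, 67051314 to 67073949, plus strand), the heavy chain of the fastest fibres, was at 7.97, 22.6, 71.2 and 228 FPKM in siCtrl and at 25.6, 53.0, 231 and 598 in siKlf5 cells. The siKlf5 level was 321%, 234%, 325% and 262% of the control on the 4 days, with a mean log2 ratio of 1.46 ± 0.22 (adjusted p = 0.00691). Both genes were induced under either siRNA, Myh4 by 4.68 (siCtrl) and 4.50 (siKlf5) and Myh7 by 5.14 and 3.86 on the log2 scale from day 0 to day 3. Myosin heavy chain genes are alike in sequence, and how reads from shared stretches were assigned was not tested.

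Myl4 (NM_010858, chromosome 11, 104411977 to 104448533, plus strand), the essential light chain of embryonic and atrial muscle, had one of the steadiest differences. Its level was 59.5, 616, 1685 and 2390.4 FPKM in siCtrl and 28.2, 298, 929 and 1087 in siKlf5 cells. The siKlf5 libraries held 47.5%, 48.3%, 55.1% and 45.5% of the control, a log2 ratio of -1.02 ± 0.12 (adjusted p = 0.0024), while the level itself rose by over 5 on the log2 scale under both siRNAs (5.31 and 5.22). Mybph, a thick filament protein, was at 143, 1774, 2619 and 3337 FPKM in siCtrl and 66.8, 1132, 1921 and 1724 in siKlf5 cells, a log2 ratio of -0.78 ± 0.29 (adjusted p = 0.0459). Adora1, the adenosine A1 receptor gene, was at 17.7, 194, 375 and 417 FPKM against 6.98, 130.2, 229 and 201, a log2 ratio of -0.89 ± 0.30 (adjusted p = 0.0462). The pair lies tail to tail on chromosome 1 (Mybph 136090025 to 136097809, Adora1 136095792 to 136131433) and shares 661 exon bases in the annotation of this build. Mean FPKM values were 1590 for Mybph and 196 for Adora1. Reads of the shared stretch cannot be told apart without strand. Adora1, though listed among the 18, therefore cannot be taken as a call separate from Mybph.

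The muscle genes Myog, Myom2, Myod1 and Myh3 did not pass the test. Myog, the factor that commits myoblasts to differentiation, was at 479, 1896, 2061 and 2293 FPKM in siCtrl and 328, 1517, 1739.6 and 1386 in siKlf5 cells. It was lower on each day (-0.55, -0.32, -0.24 and -0.73), a mean log2 ratio of -0.46 ± 0.22 that did not pass the test (adjusted p = 0.135). Myom2, the M-band protein myomesin 2, was also lower on each day, at -0.49 ± 0.13 (adjusted p = 0.0755). Myod1 stood at 479 to 529 FPKM in siCtrl and 398 to 557 in siKlf5 cells, with a log2 ratio of -0.06 ± 0.22 (adjusted p = 0.884) and 2 days on either side of 0. Embryonic myosin heavy chain, Myh3, had a ratio of 0.06 ± 0.17 (adjusted p = 0.848), again with 2 days on either side.

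Over the sarcomere list as a whole (54 genes tested), 3 genes were called lower and 1 higher, and 11 were lower and 9 higher on each of the 4 days. The shares, 20.4% and 16.7%, can be read against 9.59% of all transcripts tested that were lower on each day (1111) and 9.96% that were higher (1155). At an unadjusted p under 0.05, 714 of all transcripts were lower (6.16%) and 537 higher (4.63%), and such counts of the lists that follow are to be read against these shares. The list's median log2 ratio was -0.07, against 0.01 over all transcripts, and its day medians were -0.26, 0.04, 0.01 and -0.10. Among genes not called, slow myosin binding protein C (Mybpc1) was listed at 0 in siCtrl cells on day 0, and was at 9.82, 21.8 and 65.3 FPKM on the other days against 4.31, 22.4, 112 and 165 in siKlf5 cells (1.79 ± 0.67, adjusted p = 0.0833). Hspb7, a small heat shock protein of heart and muscle, was higher on each day (1.04 ± 0.49, adjusted p = 0.0987), as was the Z-disc protein Actn2 (0.55 ± 0.28, adjusted p = 0.145). Xirp1, a repair protein of the intercalated disc and Z-disc, was lower on each day within a narrow range, -0.54 ± 0.07 (adjusted p = 0.113).

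**Figure D2:**
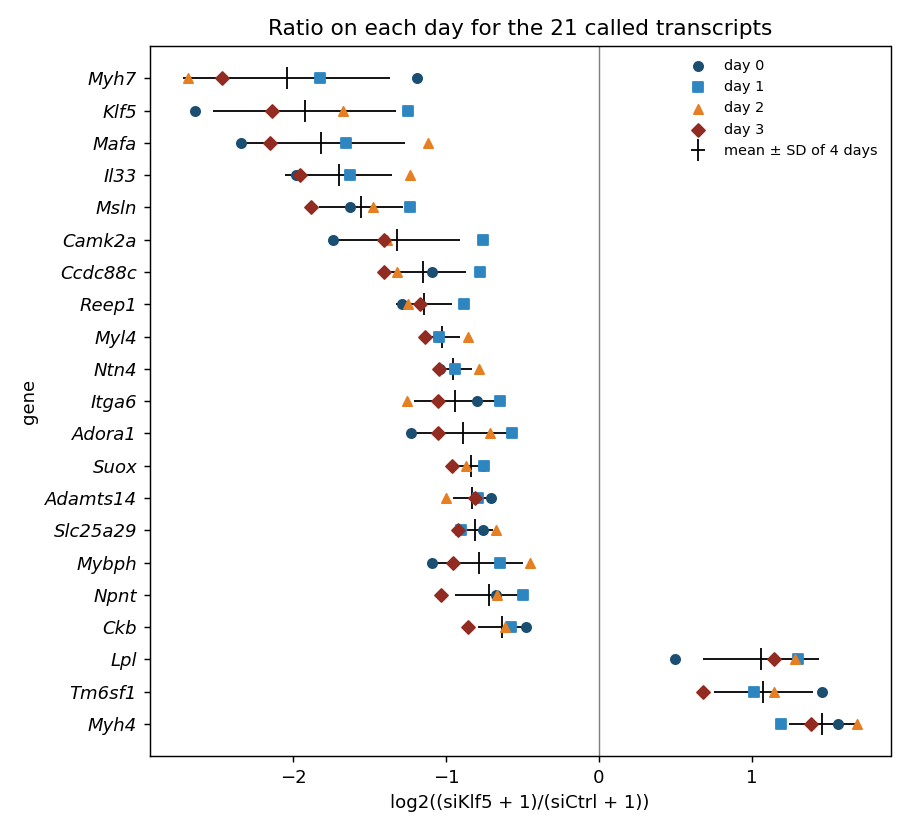
Log2 ratio of siKlf5 to siCtrl on each day (symbols) for the 21 called transcripts, with a vertical tick at the mean and a bar for the SD of the 4 days. The 18 genes that fell lie left of 0 on every day, with means from -2.04 (Myh7) to -0.63 (Ckb), and Lpl, Tm6sf1 and Myh4 lie right of 0.

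No gene of calcium handling at the muscle membrane passed the test. Of 25 genes of excitation-contraction coupling tested, none was called by limma, 15 had a mean ratio below 0, 8 were lower on each of the 4 days (32%, against 9.59% of all) and none was higher on each day. At an unadjusted p under 0.05, 8 were lower, against 6.16% of all transcripts, and none higher. The median log2 ratio was -0.18, but -0.11 when the filter was lowered to a mean of 1, -0.10 with no filter and -0.12 without day 1. It was -0.13, -0.16, -0.12 and -0.07 on the 4 days. Caveolin 3 (Cav3), which shapes caveolae and T-tubules, was at 3.53, 56.8, 217 and 316 FPKM in siCtrl and 2.91, 17.6, 95.9 and 119 in siKlf5 cells (-1.11 ± 0.63, adjusted p = 0.145). The fast calcium pump Atp2a1 had a ratio of -0.47 ± 0.29 (adjusted p = 0.165), and the calcium channel subunit Cacng1 of -0.37 ± 0.20 (adjusted p = 0.185). The other 5 of the 8 were Jph2, Cacna1s, Cacnb1, Casq2 and Kcnj12.

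Msln (NM_018857, chromosome 17, 25885558 to 25891272, minus strand), a membrane-anchored surface glycoprotein, gave the lowest p of the fit. Its level was 601, 794, 1030 and 1155 FPKM in siCtrl and 194, 337, 369.7 and 312 in siKlf5 cells. The siKlf5 libraries all lay below the siCtrl libraries, at 27.0% to 42.5% of the control of the day, a log2 ratio of -1.56 ± 0.27 (adjusted p = 0.00179). Groups that do not overlap at all, the 4 siKlf5 values on one side of the 4 siCtrl values, were found for 126 transcripts lower (1.09%) and 66 higher (0.569%). Among the called transcripts these were Msln, Klf5, Il33, Suox, Itga6 and Slc25a29, all lower, and Lpl, higher. For the other 14 the siKlf5 and siCtrl values overlapped between days.

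Ntn4, Itga6, Npnt and Adamts14, whose proteins act in or at the extracellular matrix, fell. Netrin 4 (Ntn4), a laminin-related protein, was at 63.8, 145, 194 and 249 FPKM in siCtrl and 30.5, 75.3, 113 and 120.1 in siKlf5 cells (-0.95 ± 0.12, adjusted p = 0.0136). Integrin alpha 6 (Itga6), a chain of laminin receptors, was at 154, 221, 269 and 179 FPKM against 88.2, 140.4, 112 and 86.0 (-0.94 ± 0.27, adjusted p = 0.0307). Its siKlf5 values all lay below its siCtrl values. Nephronectin (Npnt), an integrin ligand, had a log2 ratio of -0.72 ± 0.23 (adjusted p = 0.0355), and Adamts14, a protease that trims procollagen, of -0.83 ± 0.13 (adjusted p = 0.00751), with 159, 320.3, 489.9 and 510.5 FPKM in siCtrl and 97.1, 185, 244 and 290.2 in siKlf5 cells.

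The list of extracellular matrix genes holds none of Ntn4, Itga6, Npnt and Adamts14, so its counts leave these called genes out. Of 62 tested none was called by limma, 7 were lower (11.3%, against 9.59% of all) and 13 higher (20.97%, against 9.96%) on each day, 5 and 11 had an unadjusted p under 0.05 in those directions, and the median log2 ratio was 0.03 (-0.03 without day 3 and 0.13 without day 0). The type IV collagen chains Col4a2 (0.50 ± 0.23, adjusted p = 0.113) and Col4a1 (0.45 ± 0.30, adjusted p = 0.195), the main collagens of basement membrane, were higher on each day. Col4a2 stood at 419, 219, 257 and 257 FPKM in siCtrl and at 468, 339, 401 and 387 in siKlf5 cells. The CCN-family gene Nov had a ratio of -0.77 ± 0.16 (adjusted p = 0.0987). In the fusion list (20 tested, 0 called by limma, 4 lower and 2 higher at an unadjusted p under 0.05), the junctional adhesion molecule Jam2 was lowest by p, at -0.52 ± 0.14 (adjusted p = 0.0755).

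Among signalling and regulatory genes, Il33 (NM_001164724, chromosome 19, 30020280 to 30035205, plus strand), an interleukin 1 family alarmin, was lower at each time. It was at 91.5, 124, 132 and 135 FPKM in siCtrl and 22.4, 39.5, 55.4 and 34.0 in siKlf5 cells, a log2 ratio of -1.70 ± 0.35 (adjusted p = 0.00691). No other gene of the 23 cytokines and chemokines tested was called, and 4 were lower (17.4%, Il33 included) and 6 higher (26.1%) on each day, against 9.59% and 9.96% of all. The median of their mean ratios was 0.30, and 0.08 when the filter was lowered to a mean of 1. The day medians were lower, at 0.09, 0.09, 0.08 and 0.14, and 9 of the 23 mean ratios were below 0. Il1r1, the interleukin 1 receptor, had a ratio of 0.73 ± 0.30 (adjusted p = 0.0833). The transcription factor Mafa, known for insulin gene activation, was at 19.8, 76.7, 87.0 and 201 FPKM against 3.11, 23.6, 39.6 and 44.5 (-1.82 ± 0.55, adjusted p = 0.0307). Its relative Maf was on the other side, at 0.95 ± 0.39 (adjusted p = 0.0913), with 14.0, 38.4, 71.4 and 79.9 FPKM in siCtrl and 40.7, 75.8, 104 and 144 in siKlf5 cells. Camk2a, a calcium and calmodulin dependent kinase, fell by 1.32 on the log2 scale (SD 0.41, adjusted p = 0.0459), and Ccdc88c, a Dishevelled-binding protein, by 1.15 (SD 0.28, adjusted p = 0.0462).

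Of 24 immediate early genes, 0 were called by limma and 6 were lower (25%, against 9.59% of all) and 2 higher (8.33%, against 9.96%) on each day (7 lower and 0 higher at an unadjusted p under 0.05). Their median was -0.17, and -0.08 without day 0, the day with the lowest median of this list (-0.40). Maff (-0.72 ± 0.55, adjusted p = 0.216) and the orphan receptor Nr4a1 (-0.65 ± 0.41, adjusted p = 0.248) were the lowest by p. Of 27 myogenic regulators 0 were called, 4 were lower and 4 higher on each day, 14.8% in either direction (3 and 4 at an unadjusted p under 0.05), and the median was 0.01. Tead4, a Hippo pathway factor, was lower on each day, at -0.56 ± 0.23 (adjusted p = 0.106), and so was Id2, an inhibitor of helix-loop-helix factors (-0.45 ± 0.15, adjusted p = 0.219).

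In metabolism, Ckb, the cytosolic creatine kinase of brain that is also made by myoblasts, was at 437, 826, 613 and 626 FPKM in siCtrl and 313, 554, 399 and 345 in siKlf5 cells (-0.63 ± 0.16, adjusted p = 0.0355). It is the smallest mean change among the 21 calls. Ckmt2, the mitochondrial creatine kinase of muscle, chosen after its values were seen, was listed at 0 in siCtrl cells on days 0 and 1 and at 13.9 and 13.2 FPKM on days 2 and 3, against 4.17, 24.9, 47.5 and 53.0 in siKlf5 cells (adjusted p = 0.144). Of the 30 genes of glycolysis and creatine kinase, 8 were lower (26.7%) and 2 higher (6.67%) on each day, against 9.59% and 9.96% of all transcripts, and 9 and 2 had an unadjusted p under 0.05. The median was -0.08 overall but -0.40 on day 1 and 0.15 on day 2. Suox, the mitochondrial sulfite oxidase, had the smallest SD of the calls, with 215, 230.3, 334 and 364 FPKM in siCtrl and 126, 137, 183 and 187 in siKlf5 cells (-0.83 ± 0.10, adjusted p = 0.00751). Slc25a29, a mitochondrial carrier of basic amino acids, was at 85.1 to 124 FPKM in siCtrl and 49.98 to 77.5 in siKlf5 cells (-0.81 ± 0.12, adjusted p = 0.0459). Reep1, which shapes the endoplasmic reticulum, had a ratio of -1.15 ± 0.18 (adjusted p = 0.0355).

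Lpl (NM_008509, chromosome 8, 71404454 to 71430831, plus strand), which releases fatty acids from lipoproteins, was at 125, 76.3, 79.4 and 91.8 FPKM in siCtrl and 177, 189, 195 and 205 in siKlf5 cells. All siKlf5 values lay above all siCtrl values, and the log2 ratio was 1.06 ± 0.38 (adjusted p = 0.0362), smallest on day 0 (0.50). Defining markers of adipocytes, a cell type rich in Lpl, were near 0: Plin1, Lep and Retn were at 0 in each library and Adipoq reached 3.81 in 1 library. The adipocyte factor Pparg was lower on each day (-0.41 ± 0.32, adjusted p = 0.401). Cebpa, the other adipocyte marker tested, was higher on 3 days and lower on 1 (0.23 ± 0.72, adjusted p = 0.847). Tm6sf1 was at 1.37, 81.1, 138 and 144 FPKM against 5.54, 165, 306 and 232 (1.08 ± 0.32, adjusted p = 0.0462). Its transcript end overlaps that of Hdgfrp3, which had a mean FPKM value of 15.3. Next among the higher transcripts were carbonic anhydrase 2 (Car2, 0.89 ± 0.21, adjusted p = 0.0632), angiopoietin 1 (Angpt1, 0.61 ± 0.10, adjusted p = 0.0755), Tmeff2 (1.22 ± 0.31, adjusted p = 0.0755) and pyruvate carboxylase (Pcx, 0.84 ± 0.24, adjusted p = 0.0833), none of which passed the test.

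**Figure D3:**
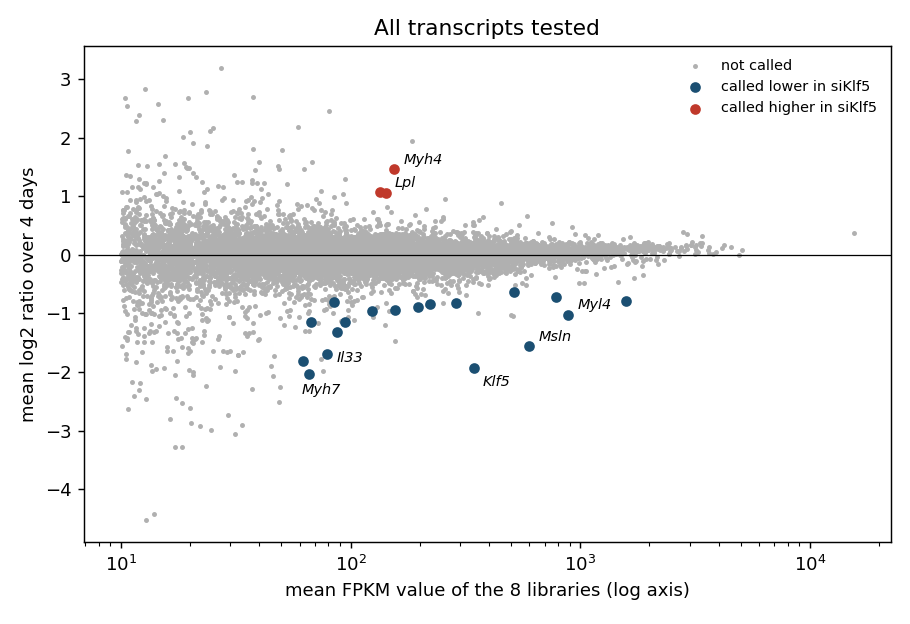
Mean log2 ratio over the 4 days against the mean FPKM value of the 8 libraries (log axis) for the 11591 transcripts tested, with the 18 called lower in blue and the 3 called higher in red. The scatter widens toward low levels, and the called transcripts have means of 62.0 to 1590.

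Genes of cell division and DNA replication were higher together by a small amount. Of 86 tested, 32 were higher on each of the 4 days (37.2%, against 9.96% of all) and 0 were lower on each day, and the mean ratio was above 0 for all but 4 of them. No gene of the list was called by limma, and 27 were higher, against 4.63% of all transcripts, and 0 lower at an unadjusted p under 0.05. The median log2 ratio was 0.20, and 0.11, 0.33, 0.07 and 0.32 on the 4 days. It stayed between 0.16 and 0.26 when a day was left out and between 0.19 and 0.21 under the 3 other scalings. The clamp loader subunit Rfc4 was at 139.9, 31.8, 84.4 and 32.8 FPKM in siCtrl and 198, 80.4, 102 and 92.8 in siKlf5 cells (0.89 ± 0.59, adjusted p = 0.165). Cyclin B2 (Ccnb2) had a ratio of 0.39 ± 0.23 (adjusted p = 0.208) and Aurora kinase B (Aurkb) of 0.44 ± 0.28 (adjusted p = 0.214). All 3 were highest on day 0 under both siRNAs. In bulk RNA, more cells that divide and more RNA per dividing cell cannot be told apart. The study reported no effect of the knockdown on proliferation, from a growth curve of C2C12 cells in growth medium. That curve does not cover the days in differentiation medium.

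Of 34 genes of homologous recombination and Fanconi repair, 5 were higher (14.7%, against 9.96% of all) and 1 lower (2.94%, against 9.59%) on each day, with a median of 0.14 and 0 calls (4 and 1 at an unadjusted p under 0.05). The 19 genes of cell cycle exit had a median of -0.01, 0 calls, and 3 members lower (15.8%, against 9.59% of all) and 0 higher on each day (4 lower and 1 higher at an unadjusted p under 0.05). The 3 lowest by p were Gadd45b, a stress-induced growth arrest gene (-0.46 ± 0.15, adjusted p = 0.144), cyclin D1 (Ccnd1, -0.32 ± 0.23, adjusted p = 0.29), which drives entry into the cycle, and Cdkn1a, the p21 inhibitor (-0.34 ± 0.31, adjusted p = 0.352). Ccnd1 and Gadd45b were lower on each day, and Cdkn1a on 3 of 4.

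**Figure D4:**
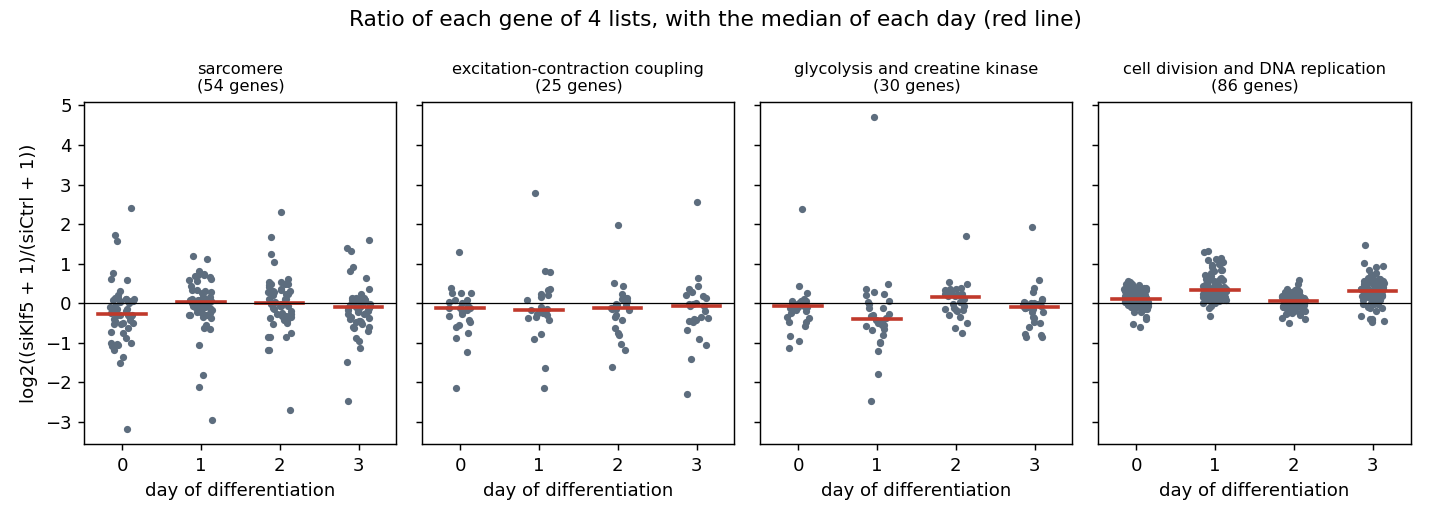
Log2 ratio of siKlf5 to siCtrl on each day for each tested gene (points) of 4 lists, with the list's median as a red line. The cell division medians lie above 0 on each day (0.07 to 0.33) and those of excitation-contraction coupling below 0 (-0.16 to -0.07), whereas those of the sarcomere and of glycolysis fall on both sides.

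No gene of the ribosome, the proteasome or oxidative phosphorylation was called. The 79 cytosolic ribosomal protein genes all had a mean ratio above 0, with a median of 0.11, but the day medians were 0.07, -0.09, 0.39 and 0.09, so that the sign differed on day 1. Their median was 0.01 without day 2 and 0.04 after cyclic loess scaling. Of 75 subunits of oxidative phosphorylation, 16 were higher (21.3%, against 9.96% of all) and 2 lower (2.67%, against 9.59%) on each day, with a median of 0.09 (0.03 without day 2) and 0 calls (7 higher and 0 lower at an unadjusted p under 0.05). The 34 proteasome subunits had a median of 0.01, and the 22 genes of the interferon response, which transfected RNA can induce, had a median of -0.02 and a lowest adjusted p of 0.518. Genes of cholesterol and fatty acid synthesis (35 tested) and of the endoplasmic reticulum stress response (42 tested) had day medians on both sides of 0, from -0.35 on day 1 to 0.46 on day 3 for the first and from -0.31 on day 1 to 0.39 on day 2 for the second.

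The difference was also compared across the days. A linear change of the log2 ratio from day 0 to day 3 was tested in limma for each transcript, and 0 of 11591 were called (0%), with a smallest adjusted p of 0.271. At an unadjusted p under 0.05 there were 549 transcripts, no more than this threshold gives when no ratio changes with the day. The genes named next are the ends of this ranking, and none is a call. Of transcripts averaging 50 or more, the lowest slope statistic belonged to Anxa8, an annexin, with a slope of -0.83 per day, with 75.8, 53.1, 354 and 725 FPKM in siCtrl and 89.1, 64.7, 148 and 178 in siKlf5 cells (adjusted p = 0.271). Uap1l1, Thop1, Pbx3 and Fam171a2 followed, with slopes between -0.81 and -0.46 per day. The highest slope statistic belonged to Gm7325, the gene of the fusion peptide myomixer, with ratios of -1.05, -0.84, -0.30 and 0.16 (slope 0.41, adjusted p = 0.42). It was at 34.1, 569, 982 and 683 FPKM in siCtrl and 16.0, 318, 795 and 761 in siKlf5 cells. Idi1, an enzyme of cholesterol synthesis, had ratios of -0.51, -0.43, 0.33 and 0.54, and Cox7a1, the muscle form of a cytochrome oxidase subunit, of -1.61, -1.28, 0.41 and 0.52. Tnc and Arpc4 followed with slopes of 0.36 and 0.34.

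Signs varied between days for most transcripts: 3772 were split with 2 days on either side, 2595 were lower on 3 days and 2884 higher on 3. In the 6039 transcripts that averaged 100 or more, Pearson's r between the ratios of day 2 and day 3 was 0.40 across transcripts, and for the other pairs of days it lay between 0.13 and 0.22. Over all 11591 transcripts it was 0.21 for days 2 and 3 and 0.02 to 0.11 for the other pairs. Transcripts are not independent replicates and each day's ratio carries its own pair of libraries. Of transcripts averaging 50 or more, the largest SDs over the days belonged to Hist1h4n, which was listed at 0 in siKlf5 cells on day 1, and to Pvalb, the parvalbumin of fast fibres. Pvalb was at 3.44, 7.92, 32.9 and 74.9 FPKM in siCtrl and 0, 60.1, 134 and 447 in siKlf5 cells (1.29 ± 2.32, adjusted p = 0.551). Hist2h3b, Fgf21, Chac1 and Fn3k came next, with SDs of 2.07, 1.83, 1.72 and 1.66. Fgf21, a stress-induced hormone, and Chac1, a glutathione-degrading enzyme of the amino acid response, were both lower on day 1 (-1.77 and -2.08) and higher on day 2 (2.44 and 2.05). Among the largest mean changes that did not pass the test were the reductase gene Dhrs7c (-1.98 ± 1.14, adjusted p = 0.107), listed at 0 in siKlf5 cells on day 0, and Tceal7 (1.94 ± 1.53, adjusted p = 0.176), listed at 0 in siCtrl cells on day 0.

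Depth and identity of the libraries bear on all of these values. Reads recovered from the FPKM steps were between 7850496 and 20301506 per library, with the fewest in both libraries of day 1 and the most in siCtrl cells of day 2. In each library, transcripts with 6 reads far outnumbered those with 5 (419 against 68 in siCtrl cells of day 0). Both mates of a pair were thus mostly counted, and sequenced fragments are fewer than these reads. Day 1 had the widest ratios, with an SD of 0.71 over transcripts against 0.50 to 0.62 on the other days, and 1353 transcripts above and 800 below 1.5-fold. The part of depth in this was not tested. Muscle markers summed to 3959 to 11160 FPKM in siCtrl and 3459 to 10800 in siKlf5 libraries, with Myod1, Myf5, Des, Cdh15, Myog, Ckm and Acta1 all detected. Endothelial markers summed to at most 28.5, macrophage markers to at most 122 and adipocyte markers to at most 174, mostly Pparg and Cebpa. Osteoblast markers summed to 2438 to 3615 in siCtrl and 3080 to 3901 in siKlf5 libraries, nearly all Spp1, with Ibsp at 0. Neuron markers summed to 798 to 2644 in siCtrl and 718 to 2058 in siKlf5 libraries, with Nefl at the highest mean level and Snap25 at 0. Of the 7 neuron markers, 5 were tested and 4 had a mean ratio below 0. None was called by limma, with 2 lower at an unadjusted p under 0.05. Their part in the results was not tested.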

How the data were processed

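Poly(A) RNA was sequenced from both ends by the authors, who mapped reads with STAR (mm9) and used HOMER for exon counts per RefSeq transcript, on either strand and with 1 transcript per gene. The values they deposited under the name FPKM are scaled to a fixed total per library. This fixed total is larger than the one that defines FPKM. On a true FPKM scale, the library totals given by the steps would fall below the recovered reads. Levels called FPKM here, and the threshold of 10, are therefore larger than true FPKM. The study's text also names a DESeq2 normalization, which was not used here. Transcript length, as deposited, was used only to recover reads: all low values checked lay within 0.1 of a whole read. 8 log2 columns were not used, as 1 carries no day. The 8 libraries were grouped by siRNA and paired by day, and deviations of libraries of the same day from their group means correlated at r = 0.197 to 0.786. On day 2 the highest correlation with a library of another day (0.476) was above that of the same day (0.447). Each transcript with a mean of at least 10 was fitted as log2(FPKM + 1) on day and siRNA with limma 3.58.1 (R 4.3.3), with a trended prior (5.86 prior and 3 residual degrees of freedom) and Benjamini-Hochberg adjustment over all 11591. A slope of the daily log2 ratio was fitted in the same way. Pseudocount, filter, scaling, prior, day block and days were varied in the alternatives. Gene lists are described by counts and medians. The named genes are Klf5, other Klf genes and those the study names, the 12 lowest and 12 highest statistics, the 6 largest changes in each direction, up to 3 genes per list, the 6 largest SDs and 5 slopes at each end. Other names were chosen after their values were seen. Members and lists were chosen with earlier results of these data known. Intervals of counting error were not computed, and precision rests on the spread between days. Promoter sequences of some called genes are not reported here. Exon overlaps came from GENCODE on the same build, and figures were drawn with Python 3.11.15 and matplotlib 3.10.9.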

Additional observations from a re-analysis of the deposited data

Results flagged for a closer look

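Dixon's test at the 95% level was applied to the 4 daily values of 25 genes and 30 list medians, and 4 list medians had a day apart from the other 3, where chance marks about 1 in 20 groups. The median log2 ratio of the Klf and Sp genes was -0.27 on day 2, against -0.10, -0.09 and -0.09 on days 0, 1 and 3. The dystrophin complex and acetylcholine receptor genes had a median of 0.13 on day 1 and of -0.11, -0.08 and -0.07 on days 0, 2 and 3. In the myoblast fusion list the median was 0.14 on day 3 and lay between -0.10 and -0.06 on the earlier days. The interferon response and antigen presentation genes had a median of -0.11 on day 2 and of 0.02 on each of the others. No daily log2 ratio of the 21 called genes, or of Myog, Myom2, Myod1 and Myh3, stood apart in this way.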

How the results depend on the processing

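All 21 calls kept their direction under the 16 alternatives, of which only the 3 other scalings could have changed it. The counts moved. Against 18 lower and 3 higher in the fit reported, there were 9 and 1 with a mean of at least 1, 0 and 0 with no filter, 27 and 6 with a mean of at least 50, 44 and 12 without transcripts under 200 nt, 16 and 1 after cyclic loess, 0 and 0 without the trend, and 32 and 9 with a robust prior. Leaving out a day gave 0 to 31 lower and 0 to 6 higher, with 0 and 0 without day 2, and it gave 1583 to 1900 transcripts lower and 1785 to 2024 higher on all days left, against 1111 and 1155 on 4 days. Pseudocounts of 0.1 and 10 and the other 2 scalings stayed within 1.5 times. With no replicate block, that is without pairing by day, 0 and 0 were called. In that fit differences between days count as spread, and their part in the loss was not tested. The slope test called 0 in each fit. The log2 ratio of Klf5 was -1.92 and no longer called with no filter, without the trend, with a robust prior and with no replicate block. It was -2.01 and not called without day 2, within a range of -2.15 to -1.69 over the alternatives.

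List medians that moved by more than the SD of their day medians were those of cytokines (0.16 with a pseudocount of 10, 0.0762 with a mean of at least 1, 0.0412 with no filter, 0.0330 to 0.219 with a day left out, against 0.30), excitation-contraction coupling (-0.11, -0.10 and -0.27 with a mean of at least 1, no filter and a mean of at least 50, and -0.20 to -0.12 with a day left out, against -0.18), clustered histones (0.0049 with a mean of at least 50 and 0.0931 to 0.412 with a day left out, lowest without day 3, against 0.32) and apoptosis (-0.0422 to 0.0625 with a day left out, against 0.02). The cause was not tested. No scaling moved the median of all transcripts by over 0.1. With 1 library per siRNA and day, a day's own effect and the library cannot be told apart.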
